A study of Mus musculus with 10 samples.

Results

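The 55 genes described here encode the machinery that copies DNA in S phase, together with the enzymes that make its nucleotides and the factors that repack the new DNA. They were chosen by name: origin licensing factors, the replicative helicase, polymerases, nucleotide synthesis and chromatin assembly. All 55 symbols were in the deposited table of 23337 genes. All 55 also passed the filter on low counts, which left 13191 genes for testing. That filter asks for about 10 counts in 4 libraries. The control libraries alone would not have carried 12 of the 55 through it: Orc1, Cdt1, Cdc6, Gins1, Gins2, Mcm10, Pole2, Exo1, Chaf1b, Uhrf1, Clspn and E2f1. These passed through their knockout values, so a rise in them is favoured by the filter.

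RNA was measured in left atria of mice of mixed C57B6 and 129 background, aged 8 to 10 weeks by their sample labels and 6 to 8 weeks by the extraction protocol. There were 10 libraries: 4 labelled control, Tbx5 wildtype (Tbx5 +/+), from 2 males and 2 females, and 6 labelled knockout, Tbx5 null (Tbx5-/-), from 3 males and 3 females. Tbx5 is a transcription factor of the cardiac atria. In the knockout, a tamoxifen-inducible Cre under the R26 promoter, active in all cell types, cut out exon 3 after 0.167 mg of tamoxifen a day for 3 days, and atria were taken 1 week later. Whether control mice carried the Cre or received tamoxifen is not given in the labels. The comparison asks how transcription in the adult left atrium differs once Tbx5 has been removed, and the replication genes are one program within it.

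Before S phase, the origin recognition complex, Cdc6 and Cdt1 load the ring of Mcm2 to Mcm7 onto origins. Kinases, Cdc45 and GINS then turn that ring into the active helicase, and polymerases with the Pcna clamp copy both strands. E2F transcription factors, held back by the retinoblastoma family in resting cells, drive many of these genes, so their RNA is low in tissue with few dividing cells. Adult cardiomyocytes rarely divide, whereas fibroblasts, endothelial cells and macrophages of the heart can. In bulk tissue, more cells with a transcript and more transcript per cell cannot be told apart.

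Levels are the authors' normalized counts, the raw count divided by 1 size factor per library. Control values are always given in the order M1, M2, F1, F2, and the libraries labelled knockout by their lowest, highest and median value. Fold changes are log2 of knockout over control with their standard error, from edgeR's quasi-likelihood test with Benjamini-Hochberg adjustment over all 13191 genes (given as adjusted p). A gene was called higher or lower at an adjusted p under 0.05. Each library came from a separately labelled animal, and total counts ran from 5701670 to 7697556.

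The count of Tbx5 itself went against the label. It was 939 ± 125 normalized counts in control (SD, n = 4) and 1952 ± 336 in the libraries labelled knockout (SD, n = 6), a log2 fold change of 1.03 ± 0.14 (adjusted p = 4.78e-05). Permuting the labels over the log2 level, an exact two-sided permutation test, gave p = 0.00476, the smallest that its 210 splits allow. Exon 3, by its number in the principal transcript of GENCODE M21, is 95 bp of the 4675 bp annotated as Tbx5 exon, 2.03%, so a count over the whole gene does not measure the deletion. The groups are therefore called by their labels throughout.

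A pair of libraries stood apart for the replication genes. In control, library M2 held the highest value of 41 of the 55 genes, and in knockout, library M2 held the highest of 44. The summed level of the 55 genes was 3824, 4614, 3807 and 3651 normalized counts in control. It was 6415, 6115 and 5203 in knockout F1, F2 and F3 and 5587, 7971 and 5734 in knockout M1, M2 and M3. The 2 groups did not overlap with or without these libraries: without M2 the control sums ended at 3824 and the knockout sums began at 5203.

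**Figure D1:**
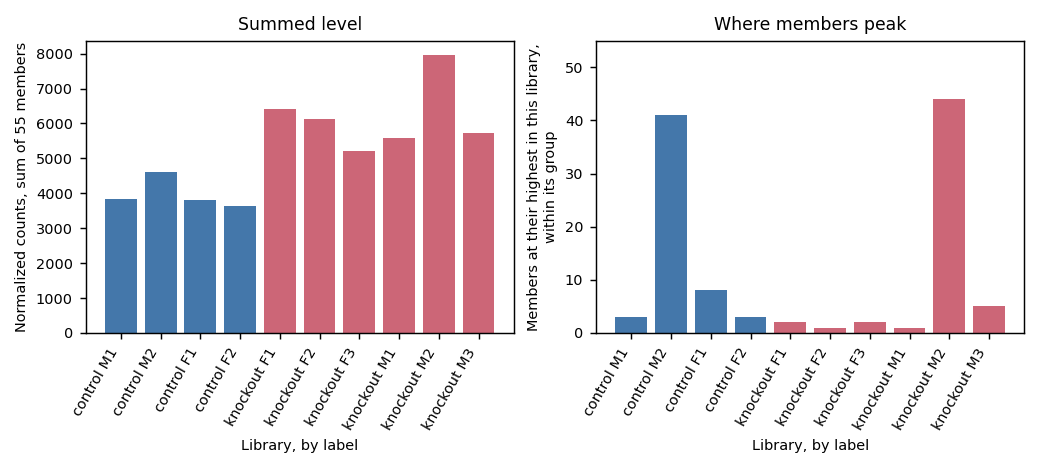
Left, the summed normalized count of the 55 replication genes in each library, with control and labelled knockout in different colours; right, the number of the 55 genes at their highest in that library within its group. Sums ran from 3651 to 4614 in control and from 5203 to 7971 in knockout, and library M2 held 41 and 44 of the highest values.

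Most of the replication genes were higher in the libraries labelled knockout. Of 55, 39 were called higher and 1, Rfc1, lower, while 15 did not pass the test. Over all 13191 genes, 42.6% were called, 20.8% higher and 21.8% lower. In 33 of the 55 the lowest knockout library exceeded the highest control, against 16.3% of all genes, and in 1 the highest knockout fell short of the lowest control, against 15.0%. The median log2 fold change of the 55 was 0.97, and that of all tested genes was -0.000915. A rise of more than 1 on the log2 scale was called in 26 of the 55, against 6.26% of all genes, and of more than 2 in 9 of the 55, against 1.96%. Of those 26 and 9, 10 and 7 are among the genes that only their knockout values carried through the filter. Among the 12 genes so carried, 11 were called higher, and among the other 43, 28 were. Leaving out both M2 libraries left 38 higher and 1 lower.

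The changes were unequal across the machinery. All 9 licensing genes, all 3 genes of flap removal and ligation, all 4 of chromatin assembly and all 4 of fork protection and repair were higher. None of the 3 single-strand binding RPA genes passed, and the polymerases, clamp loader and origin recognition complex were split. Genes that did not pass the test had higher control levels: their median was 23.7 normalized counts per kb of exon in control and 29.9 in knockout. For the 39 genes called higher these medians were 7.13 and 17.2. Of these 39, 11 were low in control and passed the filter only through their knockout values, so the filter favours this contrast.

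**Figure D2:**
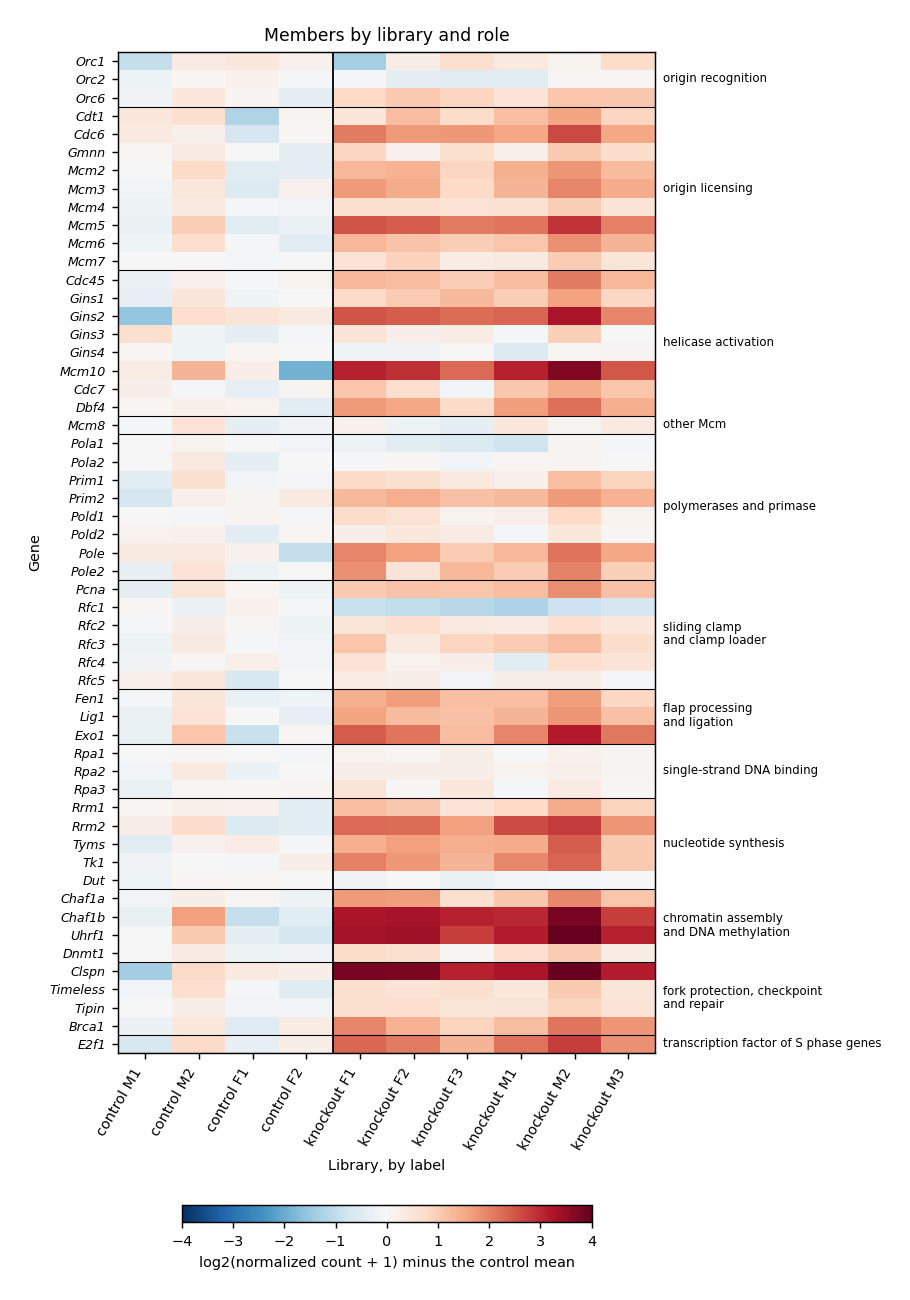
Each row is 1 of the 55 genes, grouped by role, each column a library, and the colour is log2 of the normalized count plus 1 relative to the mean of the 4 control libraries. The 33 genes with no overlap are above the control mean in all 6 libraries labelled knockout, though faintly for small changes such as Pold1. Rfc1 is below it in all 6, and the groups overlap in the RPA, Dut and Orc2 rows.

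**Figure D3:**
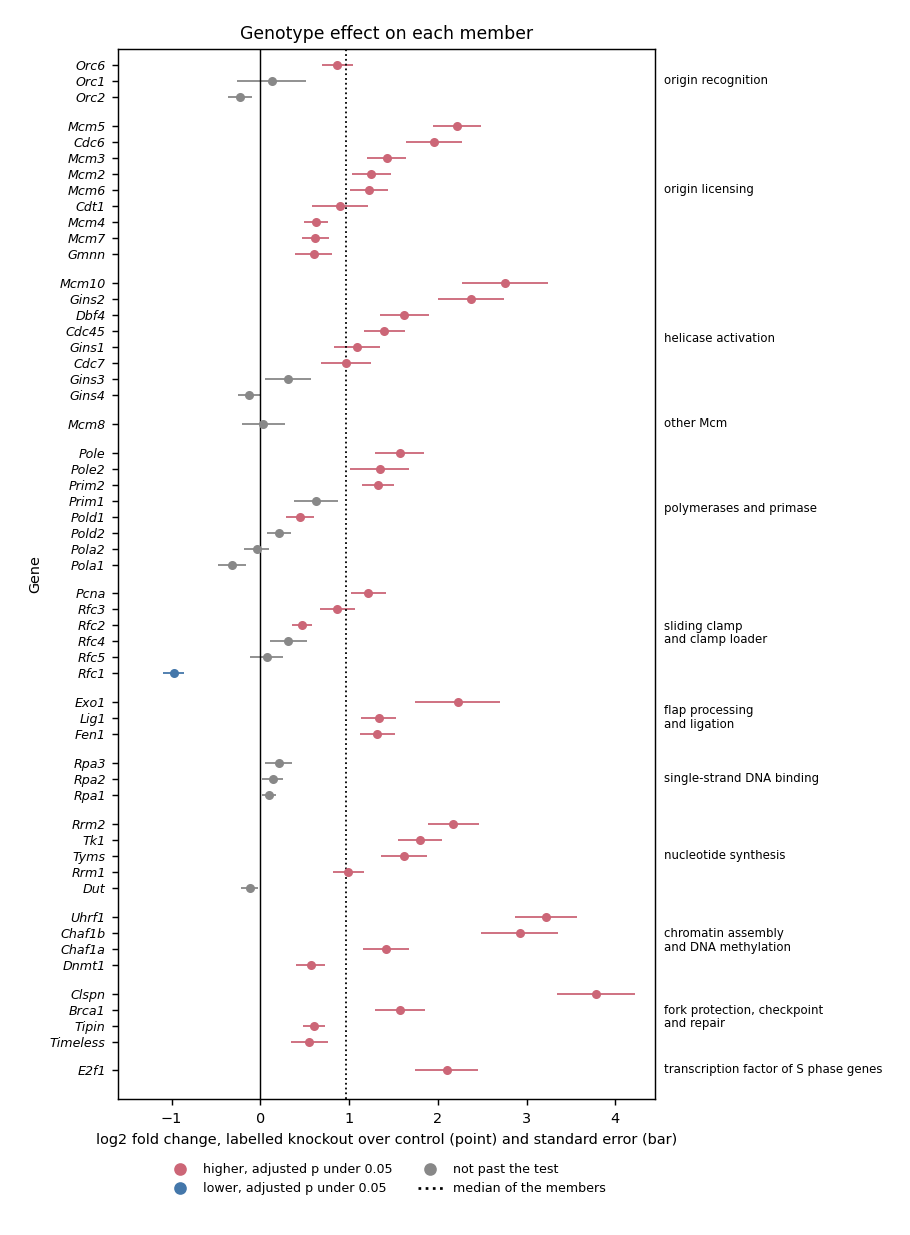
Points are the log2 fold change of each of the 55 genes, labelled knockout over control, and bars its standard error, ordered by role; colour shows the call at an adjusted p of 0.05. Values ran from -0.98 for Rfc1 to 3.78 for Clspn.

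Promoters of several members, with 200 bases before the start of a RefSeq transcript on GRCm38.p6 (the mm10 assembly), show where E2F letters lie in genes that rose and in one that did not. Uhrf1, Mcm5 and Mcm6 rose with such letters, Uhrf1 in the window of an alternative start and not in that of its annotated gene start, Mcm2 rose with none in its window, and Pola1 has them and was not called. Capitals mark a match to TTTCCCGC, TTTCGCGC, TTTGCCGC or TTTGGCGC on either strand, and neighbouring matches can overlap into 1 run. None of these 5 stretches overlaps an exon annotated in GENCODE M21, and that of Uhrf1 lies inside the annotated gene, before an alternative start.
Uhrf1, chr17:56304113-56304312, plus strand: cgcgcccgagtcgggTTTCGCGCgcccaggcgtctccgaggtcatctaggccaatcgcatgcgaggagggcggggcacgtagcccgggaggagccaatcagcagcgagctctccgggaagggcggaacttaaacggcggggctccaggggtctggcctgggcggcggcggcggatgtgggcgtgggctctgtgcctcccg
Mcm5, chr8:75109309-75109508, plus strand: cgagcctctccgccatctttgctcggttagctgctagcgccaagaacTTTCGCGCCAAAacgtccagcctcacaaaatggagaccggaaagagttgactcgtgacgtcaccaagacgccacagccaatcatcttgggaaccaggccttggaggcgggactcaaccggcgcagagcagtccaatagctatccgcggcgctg
Mcm6, chr1:128359706-128359905, minus strand: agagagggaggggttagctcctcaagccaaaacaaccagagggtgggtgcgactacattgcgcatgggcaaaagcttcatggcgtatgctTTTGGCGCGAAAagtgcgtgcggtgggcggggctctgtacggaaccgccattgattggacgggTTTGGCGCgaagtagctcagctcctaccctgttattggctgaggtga
Mcm2, chr6:88898781-88898980, minus strand: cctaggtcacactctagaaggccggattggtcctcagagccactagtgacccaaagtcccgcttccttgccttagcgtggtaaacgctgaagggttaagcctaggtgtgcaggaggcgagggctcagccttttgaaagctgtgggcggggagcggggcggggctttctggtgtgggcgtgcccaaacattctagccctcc
Pola1, chrX:93632156-93632355, minus strand: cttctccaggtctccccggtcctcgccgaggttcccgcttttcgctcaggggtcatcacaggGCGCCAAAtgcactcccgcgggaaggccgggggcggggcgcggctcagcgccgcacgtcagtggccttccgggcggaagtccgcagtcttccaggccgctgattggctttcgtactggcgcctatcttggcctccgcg

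RefSeq windows of 300 bases, 250 before and 50 after the start, were at hand for 45 of the 55 genes. A gene with several starts has several windows and counts where any of them holds a match. An E2F match was in 17 of the 45, 37.8%, against 432 of 9348 tested genes with a window, 4.62%, and 704 of 27025 genes in all, 2.6%. Among members called higher the share was 13 of 30, 43.3%, and among those not past the test or lower it was 4 of 15, 26.7%. Over all tested genes called higher, 117 of 1944, 6.02%, held a match. Within the members the match did not go with a larger rise: the median log2 fold change was 0.90 for the 17 with a match and 0.98 for the 28 without. Some windows lie inside the annotated gene, with a match, as for Uhrf1, or without. That of Timeless begins at 128237816 in a gene that starts at 128232065, and the 200 bases before the start used for E2f1 are all annotated exon. A gene without a match may thus hold one at a start not searched. The CCAAT box (CCAAT) was in 62.2% of member windows and 42.8% of tested genes, the GC box (GGGCGG) in 73.3% and 68.2%, and TTTGAA, the cell cycle homology region, in 17.8% and 14%. A match is a run of letters and says nothing of whether a factor was bound.

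Origin recognition was split between its subunits. Orc6, the subunit that helps bring Cdt1 and the Mcm ring to the complex, was 1.82-fold higher, while Orc1 and Orc2 did not pass the test. Orc6 was 46.1, 68.6, 55.5 and 38.7 in control and 74.7 to 112 (median 99.99) in knockout, without overlap (0.87 ± 0.17, adjusted p = 0.00118). Orc2, a core subunit, was 134, 165, 173 and 149.6 in control and 112 to 161 (median 133) in knockout, overlapping ranges with a fold change of -0.22 ± 0.14 (adjusted p = 0.203). Orc1, the largest subunit and an ATPase that is itself made as cells enter the cycle, was among the faintest members. Its values of 4.73, 12.7, 13.9 and 11.5 in control and 3.40 to 17.5 (median 12.8) in knockout overlapped (0.13 ± 0.39, adjusted p = 0.817), and its sign turned in the labelled females alone (-0.31). Orc6 and Orc2 each share exon bases with a gene on the other strand, Vps35 over 171 bp and Nif3l1 over 686 bp.

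All 9 licensing genes rose, by a median log2 fold change of 1.23, and 7 of them without overlap. Mcm5, a subunit of the helicase ring (chromosome 8, 75109569-75128439), rose most, by 4.65-fold. Its level was 33.1, 79.6, 28.9 and 33.5 in control and 166 to 306 (median 201) in knockout (2.22 ± 0.27, adjusted p = 2.74e-05). Control M2 stood above the other controls, and every knockout library lay above control M2. Mcm3, its neighbour in the ring, was 52.03, 77.9, 38.2 and 63.8 in control and 98.7 to 218 (median 157) in knockout (1.43 ± 0.22, adjusted p = 0.00018). Cdc6, the ATPase that helps open the ring for loading, was 10.6, 9.31, 4.63 and 8.37 in control and 24.9 to 54.98 (median 28.2) in knockout (1.96 ± 0.31, adjusted p = 0.000223). Neither overlapped between groups, and the control level of Cdc6 rests on 32 reads.

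The other ring subunits rose less. Fold changes were 1.25 for Mcm2, 1.23 for Mcm6, 0.63 for Mcm4 and 0.62 for Mcm7, with adjusted p between 0.000477 and 0.00495 and no overlap in any of them. Exons of Mcm7 overlap those of Ap4m1 and Cops6 on the other strand and hold the miRNA genes Mir25 and Mir93. The loader Cdt1 (0.90 ± 0.31, adjusted p = 0.0329) and its inhibitor geminin, Gmnn (0.60 ± 0.21, adjusted p = 0.0312), were called higher with overlapping groups. These calls were the least stable of the licensing genes: Cdt1 lost its call in 4 and Gmnn in 5 of the 10 fits that left out 1 library. For Cdt1 these were the fits without control F1 or F2 or knockout F2 or M2 (adjusted p 0.0602 to 0.0821), and for Gmnn those without control M1, F1 or F2 or knockout F1 or M2 (0.0505 to 0.0867). Both also lost it with offsets for GC content and exon length (adjusted p = 0.0711 for each). Mcm8, a relative of the ring subunits that acts in recombination and meiosis and is not part of the ring, was 18.9, 28.8, 15.04 and 17.8 in control and 15.2 to 26.97 (median 21.6) in knockout (0.03 ± 0.25, adjusted p = 0.926).

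Of the 8 helicase activation genes, 6 were higher. The GINS tetramer, which joins Cdc45 and the Mcm ring, was itself split. Gins2 was 1.18, 9.31, 8.10 and 7.32 in control and 24.00 to 60.5 (median 32.3) in knockout (2.38 ± 0.38, adjusted p = 0.000207), and the groups were apart. Its partner Gins4 was far more abundant, at 139.5, 119, 139.9 and 136 in control and 91.3 to 145 (median 126) in knockout, and did not pass (-0.12 ± 0.13, adjusted p = 0.468). Gins3 was 36.7, 20.3, 17.3 and 21.97 in control and 21.8 to 45.8 (median 28.2) in knockout, also not past (0.31 ± 0.26, adjusted p = 0.360). The ranges of Gins3 and Gins4 overlapped, and scaling by library size alone turned the sign of Gins4 (0.01). Exons of Gins2 share 2758 bp with Gse1 on the other strand.

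Cdc45, the helicase cofactor that completes the complex, was 15.4, 20.3, 17.3 and 19.9 in control and 37.00 to 77.9 (median 45.2) in knockout (1.40 ± 0.23, adjusted p = 0.0003). Dbf4, the regulatory subunit of the kinase that fires origins, was 15.4, 16.9, 16.2 and 10.5 in control and 25.6 to 70.6 (median 46.7) in knockout (1.62 ± 0.27, adjusted p = 0.00033). Neither overlapped between groups. The remaining genes called higher here were Gins1 (1.09), the kinase Cdc7 (0.97) and Mcm10 (2.76), a factor needed to start unwinding, with adjusted p between 0.000469 and 0.0132. The Mcm10 value rests on 16 control reads in all, and Cdc7, whose groups overlap, lost its call without both M2 libraries (adjusted p = 0.0627).

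Among the 8 polymerase and primase genes, 4 were called higher: Prim2, Pole, Pole2 and Pold1. Prim2, the large primase subunit, was 23.7, 44.9, 41.6 and 49.2 in control and 87.3 to 127 (median 99.3) in knockout, without overlap (1.33 ± 0.18, adjusted p = 6.92e-05). Pole, the catalytic subunit of the leading strand polymerase, was 33.1, 33.9, 28.9 and 12.6 in control and 52.2 to 118 (median 78.2) in knockout (1.57 ± 0.28, adjusted p = 0.000488). Its accessory subunit Pole2 was 8.28, 16.1, 9.25 and 10.5 in control and 15.8 to 44.9 (median 25.6) in knockout (1.34 ± 0.33, adjusted p = 0.00518). Pole was apart between the groups, whereas the lowest knockout value of Pole2 was just under the highest control. Pold1, the catalytic subunit of the lagging strand polymerase, was called higher by the least of all 39 (0.45 ± 0.16, adjusted p = 0.0365), without overlap. Pold1 lost that call in 7 of the 10 fits without 1 library, all but those without knockout F3, M1 or M3 (adjusted p 0.0502 to 0.0776), and with the GC and length offsets (adjusted p = 0.120).

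Both subunits of DNA polymerase alpha, which extends the primers, missed the threshold. Pola1 was 125, 139.7, 126 and 118 in control and 72.6 to 137 (median 101) in knockout (-0.32 ± 0.16, adjusted p = 0.119). Pola2 was 72.1, 93.98, 56.7 and 71.1 in control and 67.4 to 77.9 (median 73.2) in knockout (-0.04 ± 0.14, adjusted p = 0.836). Their groups overlapped, Pola1 passed as lower when knockout M2 was left out (-0.41, adjusted p = 0.0416), and the sign of Pola2 turned with upper-quartile and library-size scaling. Prim1, the catalytic primase, was 21.3, 45.7, 26.6 and 27.2 in control and 33.2 to 68.7 (median 47.9) in knockout and lay beside the threshold (0.63 ± 0.25, adjusted p = 0.0541). The authors' deposited table gives Prim1 an adjusted p of 0.0416, and it passed here in 12 of the 24 alternatives. These were RLE, upper-quartile and library-size scaling, DESeq2, no filter, the replicate block, females alone and the GC and length offsets (adjusted p 0.0160 to 0.0494), and the fits without control M2 (0.94, adjusted p = 0.0096), knockout M1 (0.0235), knockout F3 (0.0394) or both M2 libraries (0.0167). Pold2, the small subunit of polymerase delta, was 148, 152, 99.5 and 142 in control and 129 to 180.5 (median 162) in knockout (0.21 ± 0.14, adjusted p = 0.238).

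The clamp rose and its loader did not move as a unit. Pcna, the ring that tethers polymerases to DNA, was 61.5, 113, 85.6 and 70.1 in control and 166 to 294 (median 181) in knockout, all knockout libraries above all controls (1.22 ± 0.19, adjusted p = 0.000229). Rfc1, the large subunit of replication factor C (chromosome 5, 65261850-65335670), was the only member called lower. Its level was 433, 346, 461 and 395 in control and 171 to 255 (median 213) in knockout (-0.98 ± 0.12, adjusted p = 2.82e-05), 1.97-fold less. No knockout library reached the lowest control, and the call held in all 10 fits that left out 1 library.

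The small subunits of the loader went the other way or did not pass. Rfc3 was 28.4, 42.3, 31.2 and 30.3 in control and 42.8 to 77.9 (median 63.1) in knockout (0.87 ± 0.20, adjusted p = 0.00280), and Rfc2 also rose (0.47, adjusted p = 0.00426), both without overlap. Rfc4 was 33.1, 37.3, 41.6 and 33.5 in control and 26.97 to 57.7 (median 48.00) in knockout (0.31 ± 0.21, adjusted p = 0.246). Rfc5 was 59.1, 70.3, 32.4 and 50.2 in control and 47.4 to 62.9 (median 60.3) in knockout (0.07 ± 0.19, adjusted p = 0.799). The ranges of Rfc4 and Rfc5 overlapped, and Rfc4 passed without knockout M1 (0.44, adjusted p = 0.0450). Exons of Rfc2, Rfc4 and Rfc5 share 952, 186 and 499 bp with Lat2, Eif4a2 and Wsb2 on the other strand, and the strand setting of the counting is not given in the sources used here.

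All 3 genes that finish lagging strand fragments were higher without overlap. Fen1, the nuclease that trims flaps, was 43.8, 62.7, 37.01 and 39.7 in control and 79.6 to 147 (median 114) in knockout (1.32 ± 0.20, adjusted p = 0.000142). Lig1, the ligase that seals the nicks, was 28.4, 50.8, 34.7 and 27.2 in control and 77.5 to 118 (median 86.00) in knockout (1.34 ± 0.20, adjusted p = 0.000128). Exo1, an exonuclease of mismatch repair and flap removal, was faint at 2.37, 7.62, 1.16 and 3.14 in control and rose to 8.54 to 34.8 (median 16.6) (2.22 ± 0.48, adjusted p = 0.00221). Fen1 and Lig1 thus had nearly the same fold change, and that of Exo1 rests on 15 control reads.

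The RPA trimer, which coats single-stranded DNA in replication and in repair, was abundant in both groups and had no member past the test. Rpa1 was 497, 506, 481 and 469.6 in control and 497 to 575 (median 534) in knockout (0.10 ± 0.08, adjusted p = 0.322). Rpa2 was 128, 182, 118 and 137 in control and 151 to 165 (median 161) in knockout (0.14 ± 0.12, adjusted p = 0.359). Rpa3 was 54.4, 67.7, 69.4 and 70.1 in control and 62.2 to 94.4 (median 74.6) in knockout (0.21 ± 0.15, adjusted p = 0.298). The groups overlapped for each of the 3 genes, Rpa2 passed as higher without control M2 (0.31, adjusted p = 0.0302), and Rpa1 with library-size scaling (0.24, adjusted p = 0.0243), which moved the median of all genes by 0.14.

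Nucleotide synthesis rose in 4 of 5 genes. Rrm2, the subunit of ribonucleotide reductase that is made in S phase, was 27.2, 37.3, 15.04 and 16.7 in control and 73.05 to 162 (median 111) in knockout (2.18 ± 0.29, adjusted p = 4.99e-05), 4.52-fold higher. Tk1, the thymidine kinase of dividing cells, was 20.1, 22.01, 20.8 and 26.1 in control and 46.9 to 115 (median 81.2) in knockout (1.80 ± 0.25, adjusted p = 6.98e-05). Tyms, which makes thymidylate, was 22.5, 34.7, 38.2 and 29.3 in control and 64.4 to 169.5 (median 86.3) in knockout (1.62 ± 0.26, adjusted p = 0.000236). None of the 3 overlapped, nor did Rrm1, the large reductase subunit (0.99, adjusted p = 0.000542). Dut, which keeps uracil out of DNA by breaking down dUTP, was 134, 156, 157 and 153 in control and 123 to 151 (median 142) in knockout (-0.12 ± 0.10, adjusted p = 0.341), with overlap.

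The 3 highest fold changes, those of Clspn, Uhrf1 and Chaf1b, were in chromatin assembly and fork protection. Only their knockout values carried these genes through the filter, so it favours their rise. Uhrf1, which reads hemimethylated DNA and recruits Dnmt1 (chromosome 17, 56303321-56323486), was 10.6, 22.9, 8.10 and 6.28 in control and 77.8 to 203 (median 108) in knockout (3.22 ± 0.35, adjusted p = 1.17e-05). Chaf1b, a subunit of the histone chaperone CAF-1, was 2.37, 11.9, 1.16 and 2.09 in control and 27.3 to 55.9 (median 36.2) in knockout (2.92 ± 0.43, adjusted p = 0.000118). Chaf1a, its partner, was 23.7, 30.5, 26.6 and 21.97 in control and 39.8 to 99.9 (median 70.2) in knockout (1.42 ± 0.26, adjusted p = 0.000572). Each of these 3 was apart between groups. Exons of Chaf1a share 2542 bp with Ubxn6 on the other strand. Dnmt1, the maintenance methyltransferase, rose less and with overlap (0.57, adjusted p = 0.0121).

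Clspn, claspin, which links stalled forks to the checkpoint kinase Chek1, had the highest fold change of all 55. It was 0, 3.39, 2.31 and 2.09 in control, 8 reads in the 4 libraries together, and 20.9 to 45.8 (median 29.1) in knockout (3.78 ± 0.44, adjusted p = 1.96e-05). The authors' deposited table gives Clspn a log2 fold change of 2.92. Claspin was thus close to the limit of counting in control. Brca1, which acts in repair and protection of forks, was 14.2, 22.9, 11.6 and 20.9 in control and 32.3 to 77.9 (median 52.2) in knockout (1.57 ± 0.28, adjusted p = 0.000584). Tipin, of the fork protection complex, was 67.4, 77.9, 61.3 and 61.7 in control and 93.9 to 126 (median 101) in knockout (0.61 ± 0.13, adjusted p = 0.00152). None of the 3 overlapped. Timeless, the partner of Tipin, was called higher with overlap (0.55 ± 0.21, adjusted p = 0.0473), and lost that call in 8 of the 10 fits without 1 library, all but those without control M2 or knockout M1 (0.0507 to 0.131), and with the GC and length offsets (adjusted p = 0.0901).

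E2f1, the transcription factor of S phase genes among the 55, was 3.55, 11.01, 4.63 and 7.32 in control and 17.1 to 47.6 (median 29.98) in knockout, without overlap (2.10 ± 0.35, adjusted p = 0.000333). Its control values rest on 27 reads.

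Levels per kb of exon set subunits of 1 complex beside each other, and in several complexes the subunits lay closer together in knockout. The length used joins all exons annotated for a gene, which need not be those expressed or counted. Differences between subunits within a group can thus partly reflect annotation. In control, the 6 ring subunits ran from 10.96 normalized counts per kb for Mcm5 to 32.7 for Mcm4, a ratio of 2.99. In knockout, they ran from 27.6 for Mcm7 to 55.7 for Mcm6, a ratio of 2.02. Mcm5 thus went from the lowest subunit to 53.3 per kb, close to Mcm6. In GINS the ratio of the highest subunit, Gins4, to the lowest, Gins2, went from 62.7 to 10.6. The control level of Gins2 rests on 26 reads, and only its knockout values carried it through the filter. Its exon length also includes 2758 bp shared with Gse1, so the ratio of 62.7 is poorly measured. In replication factor C the ratio of highest to lowest subunit went from 7.42 to 2.87, as Rfc1 fell and Rfc3 rose. In RPA it was 1.86 and 1.80.

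The ratio was also taken within each library for 10 pairs of partners, chosen after their values were seen and given without a test. The log2 ratio of Mcm5 to Mcm4, with a pseudocount of 1, was -1.51 ± 0.42 in control (SD, n = 4) and 0.17 ± 0.20 in knockout (SD, n = 6). That of Prim2 to Pola1 went from -1.70 ± 0.47 to 0.01 ± 0.25, and that of Rrm2 to Rrm1 from -3.00 ± 0.53 to -1.78 ± 0.33. That of Rfc3 to Rfc1 went from -3.60 ± 0.41 to -1.77 ± 0.38. The libraries of the groups did not overlap in 8 of the 10 pairs and overlapped for Cdt1 to Gmnn and Dbf4 to Cdc7.

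**Figure D4:**
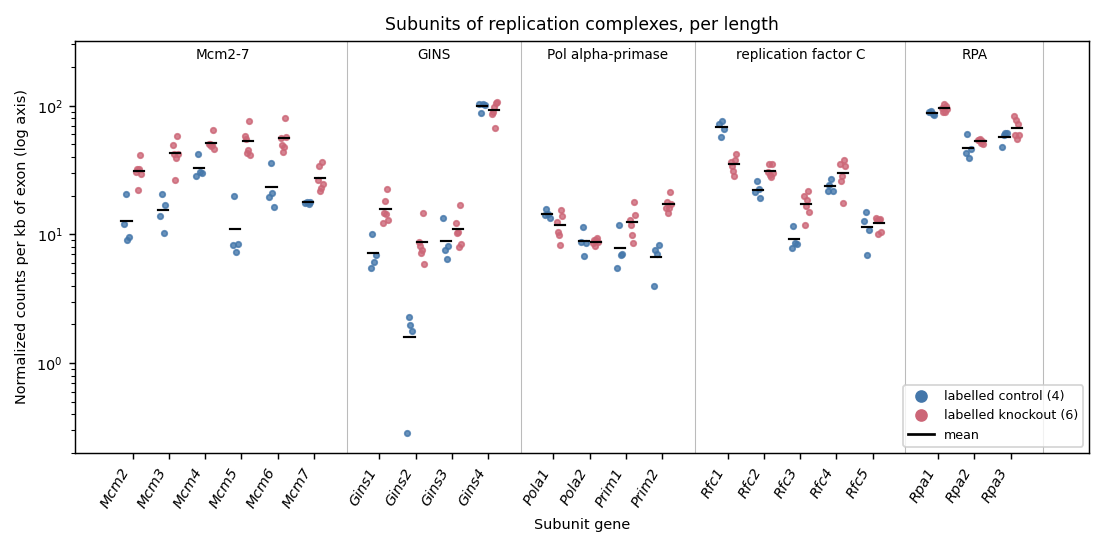
Points are normalized counts per kb of exon of each subunit in each library, control and labelled knockout in different colours, on a log axis, and short lines are group means. Mean levels of the ring subunits lie between 10.96 and 32.7 in control and between 27.6 and 55.7 in knockout, Rfc1 falls from 67.9 to 35.03, and the RPA subunits stay between 47.2 and 95.4.

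Other genes of the same processes did not all follow. Of 48 tested genes in a list of further replication, nucleotide and checkpoint genes, 16 were higher, 9 lower and 23 not past the test. These are 33.3% higher and 18.8% lower, against 20.8% and 21.8% of all tested genes, so the lower share was no larger than the background. Asf1b, a histone chaperone of dividing cells, was 7.10, 10.2, 10.4 and 7.32 in control and 35.1 to 64.1 (median 39.98) in knockout, without overlap (2.29 ± 0.25, adjusted p = 1.05e-05). Its 34 control reads would not have carried it through the filter, which favours its rise. The higher share of 33.3% includes such genes. The lower genes included Atr, the kinase that senses stalled forks, at 309.8, 329, 389 and 295 in control and 151 to 219 (median 169) in knockout (-0.94 ± 0.12, adjusted p = 3.26e-05). Every knockout library lay below every control for Atr.

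A further 7 lower genes hold several relatives of genes that rose. Rrm2b, the reductase subunit that serves resting cells, fell by 1.68-fold while Rrm2 rose (log2 fold change -0.75, adjusted p = 8.47e-05). Asf1a fell (-0.39, adjusted p = 0.0131) while Asf1b rose, and Tk2, the mitochondrial thymidine kinase, fell (-0.45, adjusted p = 0.0125) while Tk1 rose. Orc3 (-0.41) and Orc4 (-0.39), Mcm9 (-0.69), which like Mcm8 is no ring subunit, and the topoisomerase Top1 (-0.44) were also lower, with adjusted p between 0.00431 and 0.0160. Rrm2b, Asf1a and Orc4 were apart between groups, and the other 4 overlapped. Tk2 (adjusted p = 0.0721), Asf1a (0.0669) and Top1 (0.0839) lost their calls without control F1, Asf1a (0.0574) and Top1 (0.0639) also without control F2, and all 3 with library-size scaling (0.0634 to 0.0711). Orc4 (0.575) and Top1 (0.334) lost theirs with the GC and length offsets.

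In the family of E2F factors, their partners and the pocket proteins that hold them back, 8 of 17 tested genes were higher (47.1%) and 3 lower (17.6%), against 20.8% and 21.8% of all tested genes. Mybl2, a factor of the cell cycle program, was 2.37, 2.54, 0 and 2.09 in control, 7 reads in all, and 5.69 to 17.4 (median 13.8) in knockout (2.74 ± 0.48, adjusted p = 0.000482). E2f2, an activating E2F, was 4.73, 9.31, 8.10 and 2.09 in control and 16.2 to 41.2 (median 24.5) in knockout (2.02 ± 0.36, adjusted p = 0.000562). Tfdp2, a dimer partner of E2F, was 693, 635, 915 and 837 in control and 364 to 551 (median 478) in knockout (-0.74 ± 0.13, adjusted p = 0.000505). These 3 did not overlap. Mybl2 and E2f2, with 7 and 24 control reads in all, were carried through the filter by their knockout values. The filter favours such rises, and the higher share of 47.1% includes them. The 3 pocket proteins went different ways. Rbl1 was higher without overlap (0.87, adjusted p = 0.00493). Rbl2 (-0.54, adjusted p = 0.00209) and Rb1 (-0.34, adjusted p = 0.0309) were lower, Rbl2 without overlap and Rb1 with it. The call of Rb1 was lost in 8 of the 10 fits without 1 library, all but those without knockout M1 or M3 (adjusted p 0.0601 to 0.0836), with upper-quartile (0.0502) or library-size scaling (0.186) and with the GC and length offsets (0.186).

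Of 9 S phase cyclins, kinases and inhibitors, 5 were higher (55.6%) and 1 lower (11.1%), against 20.8% and 21.8% of all tested genes. Ccna2, cyclin A, which drives S phase and entry to mitosis, was 22.5, 38.1, 11.6 and 14.6 in control and 133 to 448 (median 242) in knockout (3.49 ± 0.37, adjusted p = 8.99e-06), 11.3-fold higher. Ccne1, cyclin E, was 8.28, 11.9, 11.6 and 8.37 in control and 15.2 to 38.1 (median 26.7) in knockout (1.37 ± 0.28, adjusted p = 0.00143). Wee1, the kinase that restrains mitotic entry, was 62.7, 74.5, 103 and 80.5 in control and 134 to 303 (median 151) in knockout (1.14 ± 0.23, adjusted p = 0.00136). All 3 were apart between groups. In controls M1 and F2 Ccne1 was under the filter's minimum of about 10 counts, so only its knockout values carried it through. The filter favours its rise, and the higher share of 55.6% includes it. The inhibitor Cdkn1c, p57, was lower with overlap (-0.58, adjusted p = 0.0274), and lost that call without control M1, F1 or F2 or knockout M2 (adjusted p 0.0508 to 0.120) and with library-size scaling (0.0652).

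Markers of the cell types in the tissue also differed between the groups, where 20.8% of all tested genes were called higher and 21.8% lower. All 7 tested macrophage markers were higher, and their summed level ran from 2864 to 4062 in control and from 6778 to 10386 in knockout, with M2 the highest library in both groups. Fibroblast markers were higher in 6 of 8 and lower in 1 (Pdgfra), with sums of 20268 to 22403 in control and 33466 to 44753 in knockout. Cardiomyocyte markers, which mark the labelled tissue, were at 760470 to 973440 in control and 379730 to 529850 in knockout, 5 of 8 lower and 2 higher. That sum is led by Ttn, with a mean of 448110 in control and 135950 in knockout. Myh6 was 1.29-fold lower, Tnni3 did not pass, and Tnnt2 and Actc1 were the 2 higher. Endothelial markers were higher in 3 and lower in 2 of 7. Smooth muscle and pericyte markers were higher in 4 and lower in 1 of 7. Neutrophil markers were higher in 2 of 2 tested, S100a9 and Csf3r, both with overlapping groups. Their control values rest on 23 and 34 reads in all, too few to carry either through the filter from control alone. A rise in these 2 is thus favoured by the filter. None of 5 epicardial markers and of 1 tested erythroid marker passed. The T and NK cell and B cell markers were all under the filter, with sums of 4.58 to 15.2 and 6.22 to 20.3, and no listed gene in the table was at 0 in all libraries. The part of these cell types in the replication values was not tested.

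The response in the labelled sexes was compared with an interaction term, fitted on all 10 libraries. None of the 55 genes passed at an adjusted p of 0.05, with a lowest of 0.695, where 0.205% of all genes did; DESeq2 and limma-voom also called none. At an unadjusted p under 0.05 there was 1, Chaf1b (log2 fold change 4.37 in females and 2.29 in males), where 7.15% of all genes passed. The control values of Chaf1b rest on 19 reads in all, at 1.16 and 2.09 normalized counts in control F1 and F2. Control M2, at 11.9, stood far above the other controls, so this difference is poorly measured. The median log2 fold change of the 55 was 1.05 in females and 0.94 in males, and the fold change was larger in males for 19 genes and smaller for 36. The median of male minus female was -0.129 for the 55 and 0.0161 for all tested genes. Control M2, 1 of the 2 male controls, held the highest control value of 41 of the 55. Its part in this split was not tested. On simulated counts the interaction test recovered 20.3% of 2-fold and 77.6% of 4-fold differences between the sexes, so a modest difference could go undetected.

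**Figure D5:**
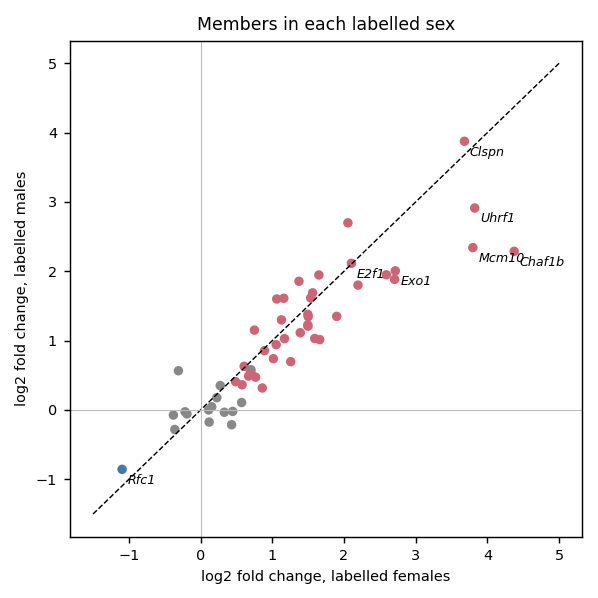
Each point is 1 of the 55 genes, with its log2 fold change in labelled females on the x axis and in labelled males on the y axis. Most genes lie near the diagonal, and Chaf1b, with 19 control reads in all, lies off it at 4.37 and 2.29.

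The authors' own comparison, in the authors' deposited table, called 40 of the 55 higher, 1 lower and 14 not past an adjusted p of 0.05, where 18.7% of its genes were higher and 17.8% lower. Its call matched the one here for 54 of the 55, and Prim1 was the exception. Both rest on the same libraries, so the authors' table is no independent measurement.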

How the data were processed

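RNA of left atria was sequenced as single-end 51 bp reads, per the labels' protocols, which name both an mRNA kit and ribosomal depletion. FastQC, TopHat2 2.0.11, featureCounts and DESeq2, on mm10, appear in the submitters' processing notes. Which gene annotation and strand setting were used is not given in the sources here. The authors deposited raw counts per gene, and a normalized signal, which equals the count over 1 size factor per library as checked on the values. The authors' deposited comparison gives a log2 fold change with its error, a linear fold ratio, p-values and adjusted p-values. A test score (the Wald statistic) that the authors deposited beside them was not used.

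Samples were grouped by title. Raw counts of 23337 genes were tested with edgeR 4.0.16 in R 4.3.3: filterByExpr, TMM scaling, quasi-likelihood F-test, Benjamini-Hochberg over 13191 genes at 0.05, without covariates. The standard error is the log2 fold change over the square root of F. Exon lengths came from GENCODE M21 and join all annotated exons of a gene. Totals of 5701670 to 7697556 counts leave a large counting error for genes with few reads. On simulated counts for 13060 genes the genotype test recovered 37.5%, 78.3% and 97% of 1.5-fold, 2-fold and 4-fold changes, with 5.9% of 152 calls false. No replicates agreed within sampling noise (lowest chi-square per degree of freedom 4.11), and no batch is given.

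The members and lists were chosen with earlier results of these data known. Named with every value are, per role, the 3 genes of smallest adjusted p and all not called higher, and per further list the 3 of smallest adjusted p and all lower ones. A gene that this rule names is not reported here. Ticrr and Rad9a were not found under these symbols, and Recql4 was under the filter. Alternatives were RLE, upper-quartile and library-size scaling, DESeq2 1.42.0, limma-voom (limma 3.58.1), a minimum of 50 counts in 4 libraries or none, covariates for sex or replicate number, 1 sex alone, a test against a fold of 1.2, an adjusted p of 0.1, a log2 fold change above 1, GC and length offsets (11948 genes), each library left out and, added after seeing the data, both M2 libraries left out.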

Additional observations from a re-analysis of the deposited data

Results flagged for a closer look

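In 152 groups of 4 or 6 libraries, 14 had a highest or lowest library far from the rest by Dixon's test, which chance does in about 1 in 20 groups. Of these, 8 were knockout M2 at the top: Mcm4 at 230.9, Mcm6 at 372.9, Cdc45 at 77.89, Gins2 at 60.48, Pcna at 294.1, Tyms at 169.5, Uhrf1 at 202.5 and Timeless at 99.88 normalized counts. Control M2 was at the top for Mcm4 at 150.7, Mcm5 at 79.59 and Chaf1b at 11.85. The others were Rpa3 in control M1, low at 54.4, Mcm9 in control F2, low at 43.93, and Wee1 in knockout F3, high at 302.6. The groups of Mcm4, Mcm5, Mcm6, Cdc45, Gins2, Pcna, Tyms, Chaf1b, Uhrf1 and Wee1 did not overlap with these libraries included.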

How the results depend on the processing

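All 40 called genes held their call and direction with RLE, upper-quartile or library-size scaling, DESeq2, limma-voom, no filter and sex as a covariate. Scaling by library size alone moved the median of all genes to 0.14. The labels M1, M2, F1 and F2 occur in both groups, and the data do not show whether they pair the animals. Deviations of same-labelled libraries correlated at -0.04, 0.17, -0.13 and -0.05, and only M2 correlated best with its own label. These 4 values cannot exclude a pairing. With the replicate number as a block, 40 genes were higher and 1 lower, all 40 calls held, the median was 1.11, Orc1 was -0.17 and Pola2 0.0040.

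With at least 50 counts in 4 libraries, 25 members were higher with a median of 0.64 and 13 of the further replication genes, fewer genes being tested. In labelled males alone 24 members were higher, and of the 3 further lists together 15 genes higher and 4 lower, with fewer libraries.

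Members lower were 3 with GC and length offsets (Rfc1, Gins4 and Dut), 0 with a log2 fold change above 1, and 1 to 2 with 1 library left out, 2 without knockout M2. Members higher were then 35 to 41. Of the further lists together, 19 were higher and 0 lower with a log2 fold change above 1, 6 lower against a fold of 1.2 and 8 lower with library-size scaling. With 1 library left out they gave 26 to 32 higher and 8 to 13 lower, the 8 without control F1. The median of the 55 ran from 0.84 to 1.08 over those fits. The interaction count was 0 throughout.

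Signs turned only in genes that did not pass. Scaling by library size turned Gins4 (0.0124), Dut (0.0171) and Pola2 (0.0919), and upper-quartile scaling Pola2 (0.0027). Labelled males alone turned Pold2 (-0.0034), Rfc5 (-0.19) and Rpa2 (-0.0122). Labelled females alone turned Orc1 (-0.31) and Pola2 (0.12). The GC and length offsets turned Pold2 (-0.0222) and Rfc5 (-0.0059). Leaving out both M2 libraries turned Pola2 (0.0892). With 1 library left out, Orc1 ran from -0.0714 to 0.34, Mcm8 from -0.0581 to 0.30, Pola2 from -0.13 to 0.13 and Rfc5 from -0.0803 to 0.27. The cause of these changes was not tested. Depth limits the faint genes most: Clspn had 8 control reads in all.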

Other observations

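Outside the 55 genes, the 5 whose log2 level followed their mean most closely within groups, over 10 libraries with the group means removed, were 2810417H13Rik, Timp1, Anxa5, Ccr2 and Hnrnpab, with Pearson correlations of 0.961, 0.947, 0.942, 0.942 and 0.939. All 10 points share their libraries and size factors, so these are descriptions. RefSeq names 2810417H13Rik Pclaf, a Pcna-binding protein, and it was 7.88 normalized counts in control and 62.4 in knockout (log2 fold change 2.89, adjusted p = 2.02e-05, edgeR's quasi-likelihood test). With so low a control mean, its control values alone would not have carried it through the filter, which favours its rise. Timp1, an inhibitor of matrix proteases, was 37.3 and 291.9 (2.90, adjusted p = 1.59e-05 by edgeR). Ccr2, a chemokine receptor of monocytes, was 33.2 and 67.4 and did not pass (0.95, adjusted p = 0.0769 by edgeR).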
